A study of Homo sapiens with 2 samples.

Results

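Tight junctions, desmosomes and the apical machinery of epithelial cells were described through 38 genes. They were chosen by gene symbol, with earlier results of these data known. They comprised 6 claudins, 8 other tight junction genes, 3 genes of apical polarity, 4 of epithelial membrane trafficking, 11 desmosome genes, 4 genes of membrane serine proteases and their inhibitors, and EPCAM with CDS1. Of these 38 genes, 37 were measured by a probe set with 1 gene symbol, out of 19775 genes in all, and F11R was not analysed here. PC3CR cells, a cabazitaxel (CBZ)-resistant subline of the human prostate cancer cell line PC3, were compared with parental PC3 cells, with 1 array for each cell line. According to the labels, PC3CR cells were passaged with CBZ, a taxane that stabilises microtubules, over 18 months and were examined after 3 months without it. The sources used here do not say whether PC3CR is a clone or a mixed population. Values are robust multichip average (RMA) values on the log2 scale, so that a difference of 1 is a 2-fold difference, the threshold of the study's methods. As each cell line has a single array, the differences have no replicate check, the number of arrays limits their precision, and no test was made. In RNA from whole cultures, fewer cells expressing a gene and less RNA per cell cannot be told apart.

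Tight junctions seal the space between neighbouring epithelial cells near their apical side. Claudins and occludin form the strands, and the zonula occludens proteins and cingulin anchor the strands to the cytoskeleton. Desmosomes hold the same cells together mechanically: desmogleins and desmocollins bridge the gap, plakoglobin and the plakophilins bind their tails, and desmoplakin ties the plaque to keratin filaments. Polarity complexes, recycling endosomes and the adaptor AP-1B keep the apical and basolateral membranes distinct. Matriptase and prostasin are serine proteases of the epithelial surface that act in a common cascade and are held in check by the inhibitors HAI-1 and HAI-2.

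The arrays were first read for the identity of the cells. The 5 epithelial markers measured, KRT8, KRT18, KRT19, KRT7 and CDH1, lay between 8.03 and 12.36 in PC3CR cells and between 8.75 and 11.69 in PC3 cells. Of these, KRT19 and KRT7 were at least 2-fold lower in PC3CR cells, with differences of -3.28 and -1.86, and CDH1 (E-cadherin) differed by -0.67. Of 12 mesenchymal and fibroblast markers, VIM (vimentin) was at least 2-fold higher, with a difference of 1.21, and CDH2 (N-cadherin) and COL1A1 were at least 2-fold lower, with differences of -4.93 and -2.12. The 7 leukocyte markers ranged from 2.95 to 5.58 in PC3CR cells and from 3.03 to 6.00 in PC3 cells, and the 5 endothelial markers from 2.99 to 5.81 in PC3CR cells and from 3.09 to 6.41 in PC3 cells. None of these 12 markers, and none of 4 prostate luminal markers, passed 2-fold. PC3 is known to carry a deletion in CTNNA1, the gene of alpha-catenin, which links cadherins to actin. Its brightest probe set read 11.13 in PC3CR cells and 9.00 in PC3 cells. Of its 5 probe sets, 4 were more than 2-fold higher in PC3CR cells. On the PC3 array these 4 read between 6.13 and 9.00, and the other read 4.95. How such signals relate to the known deletion was not tested. The identity of the cultures was not checked beyond these markers, and every difference below rests on the labels of the arrays. The part of these markers in the results below was not tested.

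Junction and apical genes were past 2-fold in both directions, and the largest differences were those of genes lower in PC3CR cells. Of the 37 genes, 11 were at least 2-fold lower in PC3CR cells (29.7%), beside 6.72% of all genes, and 7 were at least 2-fold higher (18.9%), beside 9.84% of all genes. The other 19 lay within 2-fold. As the genes were chosen with earlier results of these data known, their shares beside those of all genes are a description only. Among genes whose brighter array reached the median of its array, 35 were junction and apical genes, of which 11 were lower (31.4%) beside 10.8% of all such genes, and 7 were higher beside 15.5% of all such genes. A lower gene can reach this floor through its PC3 value alone, as RAB25 and CLDN4 did, so these shares are not separate support. The median difference was -0.38, against -0.04 over all genes. A difference of 4-fold or more was seen in 8 genes, all lower in PC3CR cells. Over all genes the differences ran from -8.43 to 6.48, and the shares past 4-fold were not computed. The lower genes were MAL2, CLDN4, RAB25, PKP1, EPCAM, PRSS8, ST14, CLDN7, PKP2, SPINT1 and JUP, and the higher genes were DSC2, PPL, DSG2, CGN, CDS1, DSP and TJP3. Nearest to the threshold were TJP3 at 1.07 and DSP at 1.13 on the outside, and MARVELD3 at -0.96 and CRB3 at -0.89 on the inside.

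**Figure D1:**
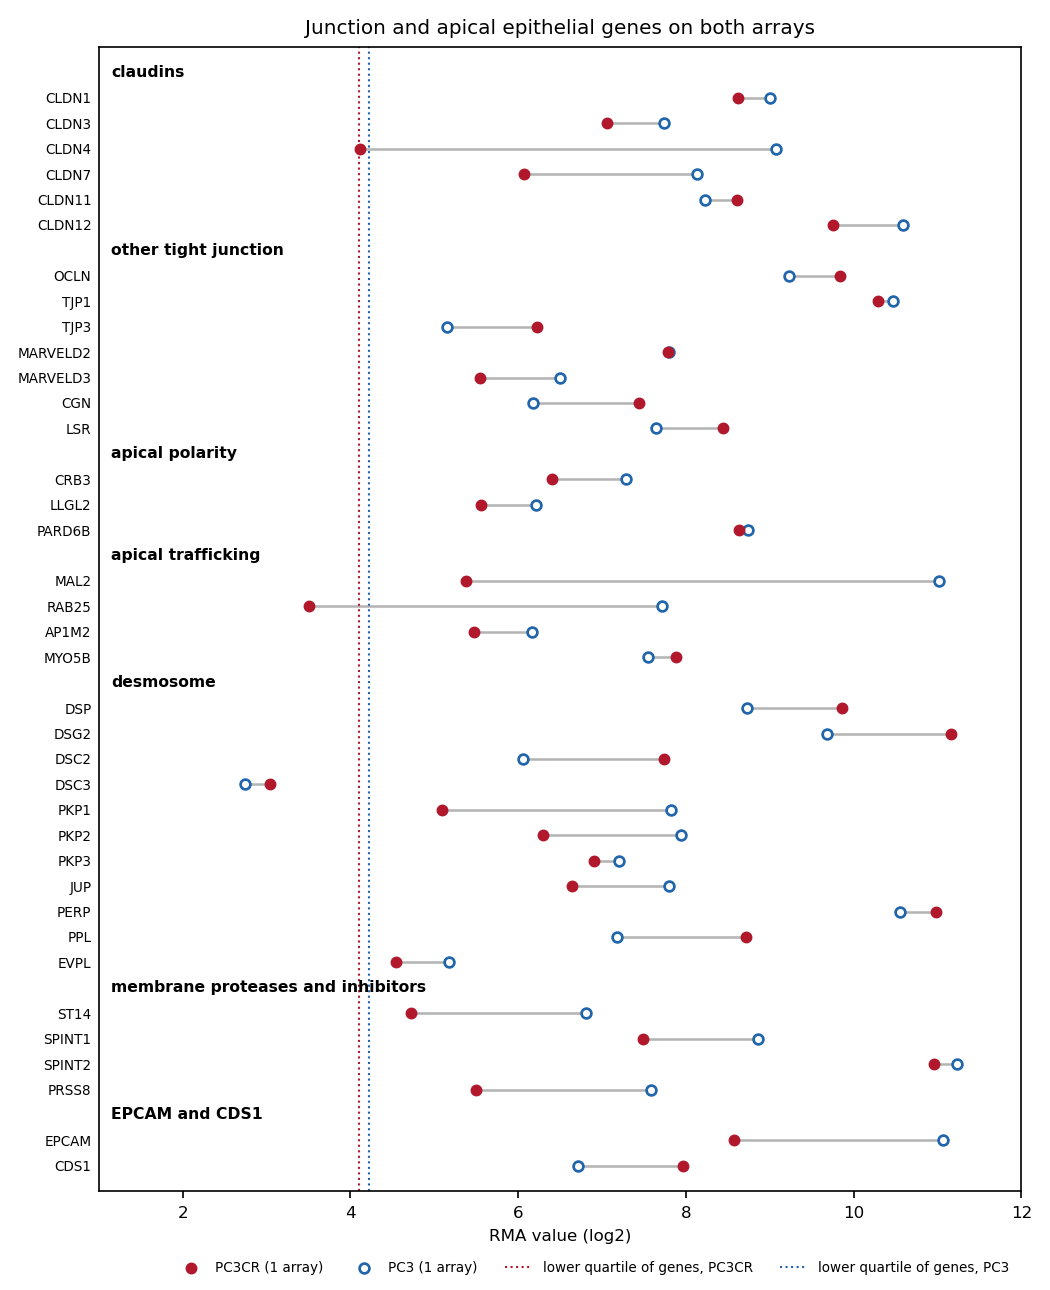
RMA values (log2, horizontal axis) of 37 junction and apical epithelial genes, 1 row per gene, with filled red points for the PC3CR array, open blue points for the PC3 array and a grey line joining them. Dotted lines are the lower quartiles of all genes on each array (4.10 and 4.22). The longest lines, of MAL2, CLDN4 and RAB25, run to the left from PC3 to PC3CR.

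The promoters of 4 of these genes are shown because they stand at both ends of the range: RAB25 and CLDN4 were among the 3 genes furthest below 0, and DSC2 and DSG2 among the 3 furthest above it. Each stretch is the 250 bases before the RefSeq start on GRCh38.p14, written 5′ to 3′ on the strand of the gene. RAB25 is at chr1:156060910-156061159 (plus strand), CLDN4 at chr7:73830746-73830995 (plus strand), DSG2 at chr18:31497927-31498176 (plus strand) and DSC2 at chr18:31102422-31102671 (minus strand, the start furthest upstream). Capitals mark the E-box CACCTG or its reverse complement CAGGTG, the letters that repressors of the ZEB and SNAI families are known to bind.
RAB25: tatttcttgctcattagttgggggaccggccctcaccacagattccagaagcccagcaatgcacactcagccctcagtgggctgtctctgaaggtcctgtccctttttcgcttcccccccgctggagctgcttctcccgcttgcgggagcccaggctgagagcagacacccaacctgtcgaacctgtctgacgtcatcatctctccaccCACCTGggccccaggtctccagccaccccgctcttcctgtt
CLDN4: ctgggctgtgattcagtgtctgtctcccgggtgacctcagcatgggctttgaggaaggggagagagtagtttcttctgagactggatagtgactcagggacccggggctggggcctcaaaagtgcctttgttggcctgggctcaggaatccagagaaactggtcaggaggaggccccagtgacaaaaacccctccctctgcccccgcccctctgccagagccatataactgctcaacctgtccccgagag
DSG2: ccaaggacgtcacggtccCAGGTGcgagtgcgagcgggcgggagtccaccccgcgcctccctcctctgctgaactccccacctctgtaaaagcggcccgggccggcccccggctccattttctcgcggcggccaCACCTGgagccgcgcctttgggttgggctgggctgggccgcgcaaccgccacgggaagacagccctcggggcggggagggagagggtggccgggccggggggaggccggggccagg
DSC2: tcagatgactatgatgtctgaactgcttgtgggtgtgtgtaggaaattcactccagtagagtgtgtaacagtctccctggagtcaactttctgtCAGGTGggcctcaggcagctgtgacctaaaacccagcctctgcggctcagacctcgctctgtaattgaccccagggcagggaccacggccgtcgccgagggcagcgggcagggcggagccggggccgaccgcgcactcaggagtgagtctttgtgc
The stretch of RAB25 held 1 such hexamer, beginning 41 bases before the start, and that of CLDN4 held none. The stretch of DSG2 held 2, beginning 232 and 116 bases before the start, and that of DSC2 held 1, beginning 156 bases before it. RefSeq windows of 300 bases, from 250 before to 50 after a start, were matched to 25 of the 37 genes, some of which have several starts and so several windows. On either strand an E-box was found in 4 of the 9 windows of lower genes, in 5 of the 8 windows of higher genes and in 7 of the 18 windows of genes within 2-fold, against 20.6% of all windows in the table. Thus the hexamer was present both in promoters of genes that were lower and in promoters of genes that were higher. AACCGGTT, which grainyhead-like activators of epithelial genes are known to bind and which is its own reverse complement, was in none of these windows and in 0.134% of all windows. A match is a description of letters and not evidence of binding.

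Among the claudins, CLDN4 and CLDN7 were at least 4-fold lower in PC3CR cells, and the other 4 genes were within 2-fold. The median difference was -0.75. CLDN4 was at 4.11 in PC3CR cells and 9.08 in PC3 cells, a difference of -4.97 or 31.3-fold. Its value in PC3CR cells was close to the lower quartile of genes on that array (4.10), which limits the size of the difference. CLDN7, a claudin that also lies along the lateral membrane, was at 6.07 in PC3CR cells and 8.14 in PC3 cells, a difference of -2.07. CLDN3, the neighbour of CLDN4 on chromosome 7 and like it a receptor for a clostridial enterotoxin, was at 7.06 in PC3CR cells and 7.74 in PC3 cells, a difference of -0.68. The neighbouring pair therefore differed by very unequal amounts. CLDN12 differed by -0.83 and CLDN1 by -0.38. CLDN11, best known from myelin and from Sertoli cells, was the only claudin of the 6 that was higher in PC3CR cells, by 0.38.

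The other tight junction genes showed no such difference. Of 7 measured, CGN and TJP3 passed 2-fold in the direction of PC3CR cells and no gene passed it in the other direction. The median of the class was 0.60. CGN (cingulin), a cytoplasmic plaque protein, was at 7.44 in PC3CR cells and 6.18 in PC3 cells, a difference of 1.26. TJP3 (zonula occludens 3) was at 6.23 in PC3CR cells and 5.16 in PC3 cells, a difference of 1.07, whereas TJP1 (zonula occludens 1) differed by -0.17. Of the strand proteins of the MARVEL family, OCLN (occludin) differed by 0.60, MARVELD2 (tricellulin) by -0.01 and MARVELD3 by -0.96. LSR, which recruits tricellulin to the corners where several cells meet, differed by 0.80. The medians of the claudins and of this class lay on different sides of 0, and this contrast was not tested.

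All 3 polarity genes were lower in PC3CR cells by less than 2-fold. CRB3, the Crumbs protein of the apical membrane, was at 6.40 in PC3CR cells and 7.29 in PC3 cells, a difference of -0.89. LLGL2, a basolateral determinant, was at 5.56 in PC3CR cells and 6.21 in PC3 cells, and PARD6B, a subunit of the Par complex, at 8.64 in PC3CR cells and 8.75 in PC3 cells. After loess centring or quantile normalization the difference of CRB3 was -1.02 under each, just past 2-fold.

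Among the 4 genes of membrane trafficking, MAL2 and RAB25 were at least 4-fold lower in PC3CR cells and the others were within 2-fold. MAL2, a tetraspan protein needed for transcytosis to the apical surface, was at 5.37 in PC3CR cells and 11.02 in PC3 cells, a difference of -5.65 or 50.1-fold. RAB25, an epithelial member of the RAB11 family that acts in apical recycling endosomes, was at 3.51 in PC3CR cells and 7.72 in PC3 cells, a difference of -4.20 or 18.4-fold. Its value in PC3CR cells lay below the lower quartile of genes, near the floor of the array. Each of these genes was read by 1 probe set. AP1M2, the epithelial subunit of the basolateral adaptor AP-1B, differed by -0.68, and MYO5B, the motor that moves RAB11 endosomes, by 0.34. The median of the 4 genes was -2.44.

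Desmosome genes lay on both sides: DSC2, PPL, DSG2 and DSP were at least 2-fold higher, and PKP1, PKP2 and JUP at least 2-fold lower. The other 4 of the 11 genes were within 2-fold, and the median of the 11 was 0.29. DSC2 (desmocollin 2) was at 7.74 in PC3CR cells and 6.06 in PC3 cells, a difference of 1.68, and all 4 of its probe sets were past 2-fold. DSG2 (desmoglein 2) was at 11.17 in PC3CR cells and 9.69 in PC3 cells, a difference of 1.48. DSC3, the desmocollin of basal and stratified epithelia, was at 3.04 in PC3CR cells and 2.75 in PC3 cells, below the lower quartile on both arrays. The cadherin genes read above that quartile were thus both higher in PC3CR cells.

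Among the plakins, PPL (periplakin) was at 8.71 in PC3CR cells and 7.18 in PC3 cells, a difference of 1.53, and DSP (desmoplakin) was at 9.87 in PC3CR cells and 8.73 in PC3 cells, a difference of 1.13. EVPL (envoplakin), the partner of periplakin in the cornified envelope, differed by -0.63, so that the partners had opposite signs. The armadillo proteins that bind the cadherin tails all had negative differences, 3 of 4 past 2-fold. PKP1 (plakophilin 1) was at 5.09 in PC3CR cells and 7.82 in PC3 cells, a difference of -2.73 or 6.65-fold. PKP2 (plakophilin 2) was at 6.30 in PC3CR cells and 7.94 in PC3 cells, a difference of -1.64, and PKP3 differed by -0.30. JUP (plakoglobin), which also binds classical cadherins, was at 6.65 in PC3CR cells and 7.80 in PC3 cells, a difference of -1.16. PERP, a tetraspan desmosome protein, differed by 0.43 on its brightest probe set and by 1.27 on a dimmer one, at 5.67 in PC3CR cells and 4.40 in PC3 cells.

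Membrane serine proteases were lower together with an inhibitor. ST14 (matriptase) was at 4.73 in PC3CR cells and 6.80 in PC3 cells, a difference of -2.08 or 4.22-fold. PRSS8 (prostasin) was at 5.50 in PC3CR cells and 7.59 in PC3 cells, a difference of -2.09. SPINT1, which encodes the matriptase inhibitor HAI-1, was at 7.49 in PC3CR cells and 8.86 in PC3 cells, a difference of -1.38. SPINT2, which encodes HAI-2, was at 10.96 in PC3CR cells and 11.23 in PC3 cells, a difference of -0.27. Thus 3 of the 4 genes passed 2-fold on the lower side, with -1.73 as the median of the class. With the mean of probe sets 2 of the 4 were, as SPINT1 came to -0.92, and 1 of the 3 probe sets of ST14 was at -0.14.

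EPCAM, an epithelial adhesion protein that binds claudin 7, was at 8.57 in PC3CR cells and 11.07 in PC3 cells, a difference of -2.49 or 5.64-fold, from its only probe set. EPCAM and its partner CLDN7 were therefore both at least 4-fold lower. CDS1, an epithelial enzyme that makes CDP-diacylglycerol for phosphoinositide synthesis, was at 7.97 in PC3CR cells and 6.71 in PC3 cells, a difference of 1.26.

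**Figure D2:**
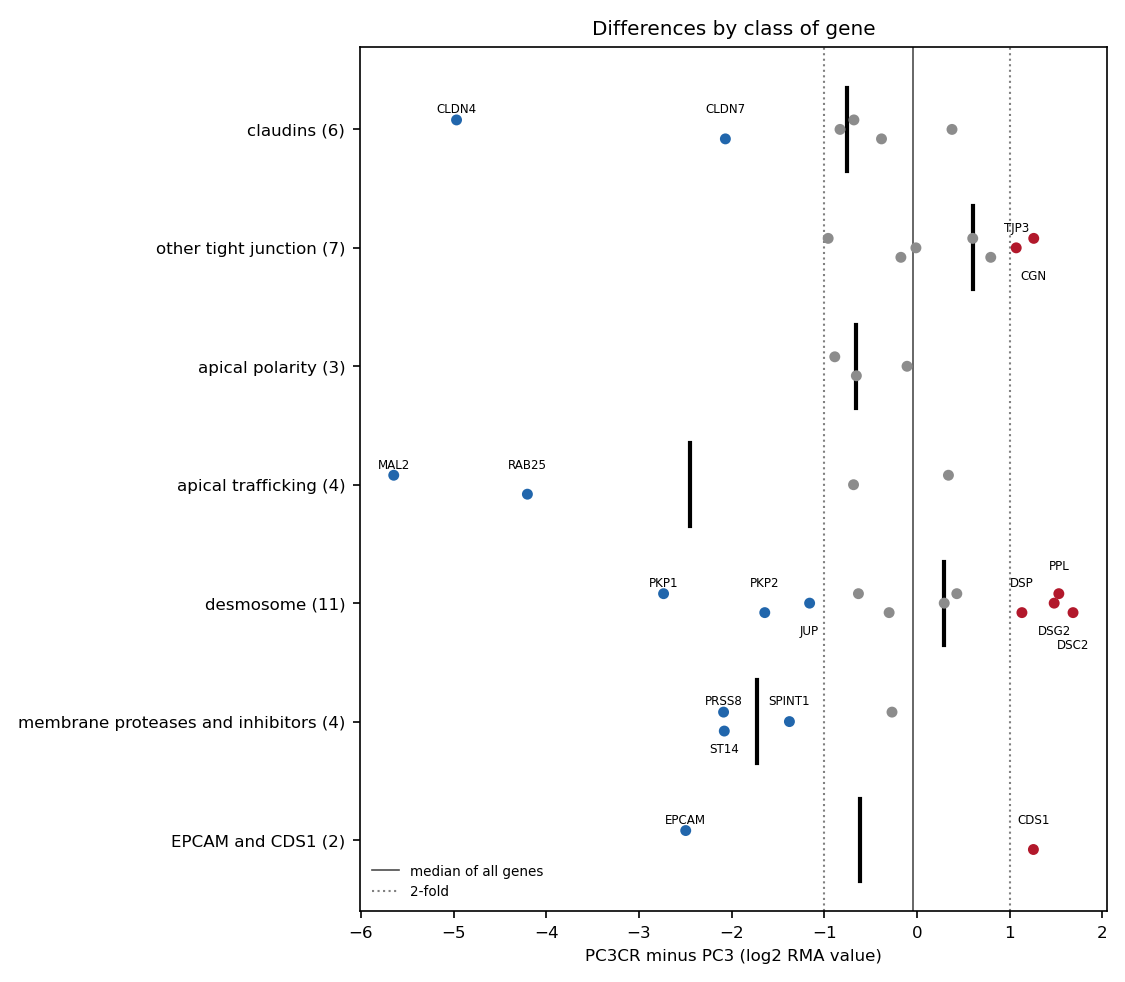
PC3CR minus PC3 on the log2 scale of RMA values (horizontal axis) by class of gene, 1 point per gene, with the number of genes in brackets and names for genes past 2-fold. Colour gives the side of the 2-fold threshold, with red for genes higher in PC3CR, blue for genes lower and grey for the others, black bars are class medians, dotted lines mark 2-fold and the thin line the median of all genes (-0.04). Claudins, trafficking genes and proteases reach to the left, whereas the desmosome genes lie on both sides.

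Probe sets of the same gene did not always give the same size of difference. The 37 genes had 76 probe sets, of which 14 were at least 2-fold lower and 13 at least 2-fold higher in PC3CR cells. Counts by probe set were thus nearly equal on both sides, against 11 lower and 7 higher by gene, and the median over probe sets was -0.16. The shares past 2-fold over all probe sets of the arrays were not computed. Of the 18 genes past 2-fold, 8 had 1 probe set, and 3 of the 10 with several had every probe set past 2-fold the same way, namely TJP3, DSG2 and DSC2. For 9 of these 10 genes all probe sets had the same sign, and in CDS1 1 of 4 read the same on both arrays. CLDN4 was the most divided gene: its second probe set was at 4.96 in PC3CR cells and 5.15 in PC3 cells, a difference of -0.19. The second probe set of PKP1 differed by -0.86, and the 3 probe sets of ST14 by between -2.56 and -0.14. In the other direction, CLDN1 was within 2-fold by its brightest probe set but differed by -1.97 on its second, at 6.71 in PC3CR cells and 8.69 in PC3 cells. With the mean of all its probe sets, CLDN4 differed by -2.58, CLDN1 by -1.18, PKP1 by -1.80, ST14 by -1.59 and PKP2 by -1.07, and CGN and CDS1, like SPINT1, came within 2-fold, at 0.78 and 0.59.

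**Figure D3:**
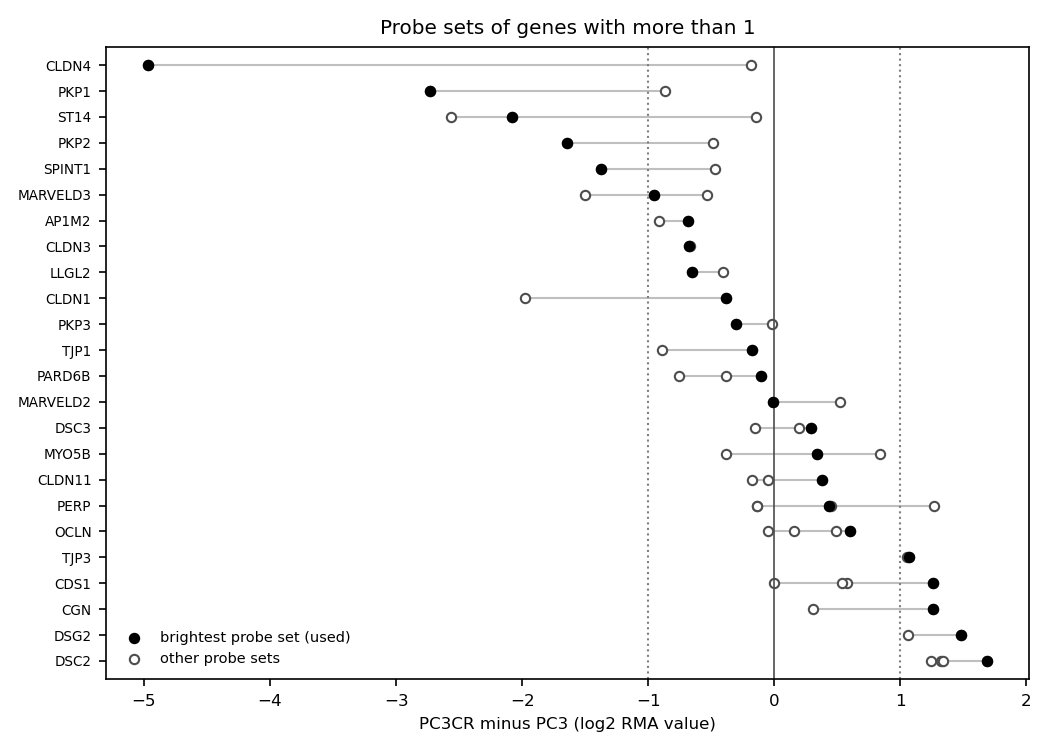
PC3CR minus PC3 on the log2 scale of RMA values (horizontal axis) for every probe set of the 24 genes with more than 1, in rows ordered by the brightest probe set (filled), with the other probe sets open and a grey line over their range. Dotted lines mark 2-fold. The probe sets of CLDN4 span -4.97 to -0.19, and the 4 of DSC2 all lie to the right of the 2-fold line.

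Position along the chromosome was described next. For each gene the 10 nearest measured genes on either side were taken in the gene order of RefSeq on GRCh38.p14, leaving out the 38 genes themselves. The medians of these neighbours lay between -0.53 and 0.46, and 27 of the 37 were within 0.25 of 0. For the 11 lower genes the neighbour medians lay between -0.41 and 0.18, and 8 of the 11 were lower than every one of their neighbours. For the 7 higher genes the neighbour medians lay between -0.10 and 0.28, and 3 of the 7 were higher than every neighbour. These genes were picked for being past 2-fold and their neighbours were not, so standing outside the neighbours follows in part from that choice. Whether the differences are regional was not tested. MAL2 differed by -5.65 beside neighbours with a median of -0.21, and EPCAM by -2.49 beside neighbours with a median of 0.07. CLDN3 and CLDN4 share the same neighbours, whose median was -0.41. The desmosomal cadherin genes DSC2, DSC3 and DSG2 lie together on chromosome 18 near CDH2. CDH2 was at 3.28 in PC3CR cells and 8.21 in PC3 cells, so that this cadherin was lower while DSC2 and DSG2 beside it were higher. MYO5B, also on chromosome 18, had 20 neighbours with a median of 0.46. Of these 20 neighbours, 6 passed 2-fold, all higher in PC3CR cells, beside 9.84% of all genes. JUP lies near KRT19 on chromosome 17, and both were at least 2-fold lower while the median of the 20 neighbours of JUP was 0.08.

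**Figure D4:**
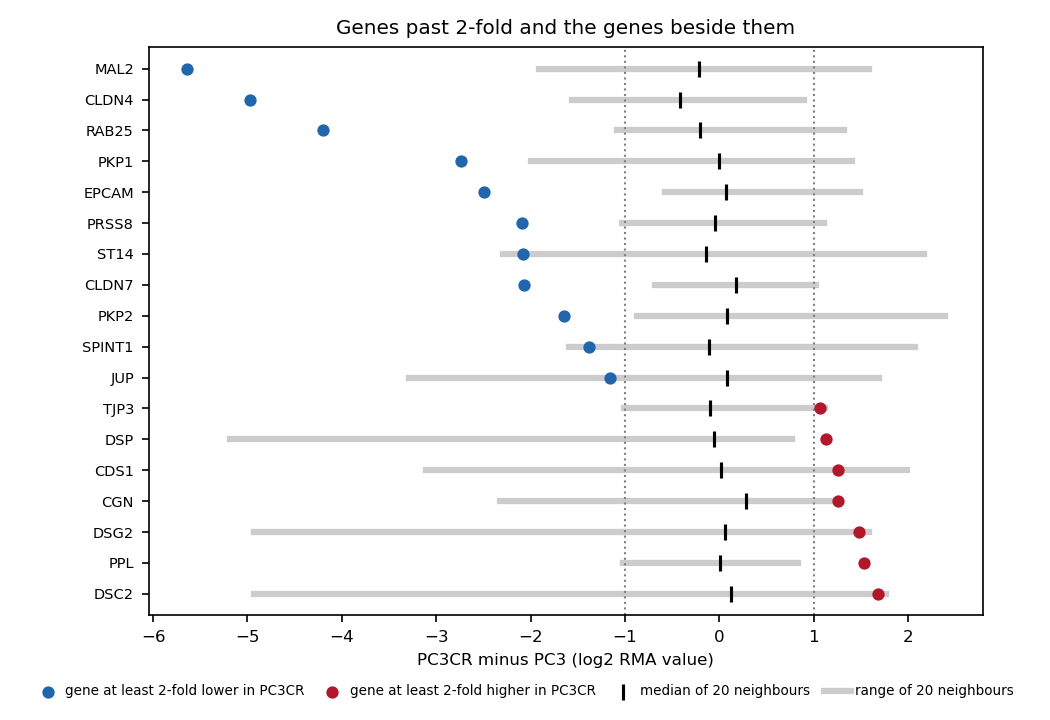
PC3CR minus PC3 on the log2 scale of RMA values (horizontal axis) of the 18 genes past 2-fold (points, blue for lower and red for higher in PC3CR), with the median (black tick) and range (grey bar) of the 20 genes beside each on its chromosome. Dotted lines mark 2-fold. The ticks lie between -0.41 and 0.28, and the points, chosen for being past 2-fold, run from -5.65 to 1.68.

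Related genes that were not among the 38 were read from lists of the same structures, also drawn up with earlier results of these data known. Of 18 other tight junction genes, 7 passed 2-fold on the higher side in PC3CR cells (38.9%, beside 9.84% of all genes) and 1 on the lower side (5.56%, beside 6.72%). Their median was 0.26. Without x and s probe sets 6 were higher and 2 lower, and PATJ, counted as higher at 1.37, had a probe set at -2.60. CGNL1 (paracingulin), the paralog of CGN, was at 6.98 in PC3CR cells and 4.56 in PC3 cells, a difference of 2.42, although its second probe set differed by 0.09. JAM3, a junctional adhesion molecule, differed by 2.17, with all 3 probe sets past 2-fold. CLMP, an adhesion molecule related to CXADR, was at 5.87 in PC3CR cells and 9.70 in PC3 cells, a difference of -3.83, and both of its probe sets were past 2-fold. CXADR itself, the coxsackievirus and adenovirus receptor, differed by 1.94. In this list the genes past 2-fold were thus mostly on the higher side, as CGN and TJP3 were. Because of how the list was chosen, this is not separate support.

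Of 14 other claudins, 12 lay within 2-fold. On each side 1 passed it (7.14%, beside 9.84% of all genes higher and 6.72% lower). CLDN23 was at 7.04 in PC3CR cells and 4.76 in PC3 cells, a difference of 2.28, and CLDN14 at 4.27 in PC3CR cells and 6.24 in PC3 cells, a difference of -1.97. Of 23 other trafficking genes, 3 passed 2-fold on each side (13.0%, beside 9.84% of all genes higher and 6.72% lower), and the median was 0.14. With the mean of probe sets 1 was higher. VAMP8, a SNARE of endosomes and of regulated exocytosis, was at 4.62 in PC3CR cells and 9.17 in PC3 cells, a difference of -4.54. RAB17, another epithelial Rab of apical transport, differed by -1.94. RAB27B and its effector SYTL4, which act in secretion, differed by 2.86 and 2.56. Each had only 1 of its 3 probe sets past 2-fold, and 1 of RAB27B differed by 0.31 and 1 of SYTL4 by -0.85. Trafficking genes outside the 38 thus lay on both sides of 0, and VAMP8 had a difference of the size seen in RAB25.

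Of 15 other polarity genes, PARD6G and LLGL1 passed 2-fold, both higher in PC3CR cells (13.3%, beside 9.84% of all genes). Their differences were 1.44 and 1.38, but neither passed with the mean of probe sets. Their paralogs PARD6B and LLGL2 differed by -0.11 and -0.65. None of 6 other desmosome genes passed 2-fold, and PKP4 at 0.53 was the only plakophilin of the 4 that was higher in PC3CR cells. No gene among 10 other membrane proteases passed 2-fold. Their median was -0.38, with values of at most 5.90 in PC3CR cells and 6.51 in PC3 cells.

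**Figure D5:**
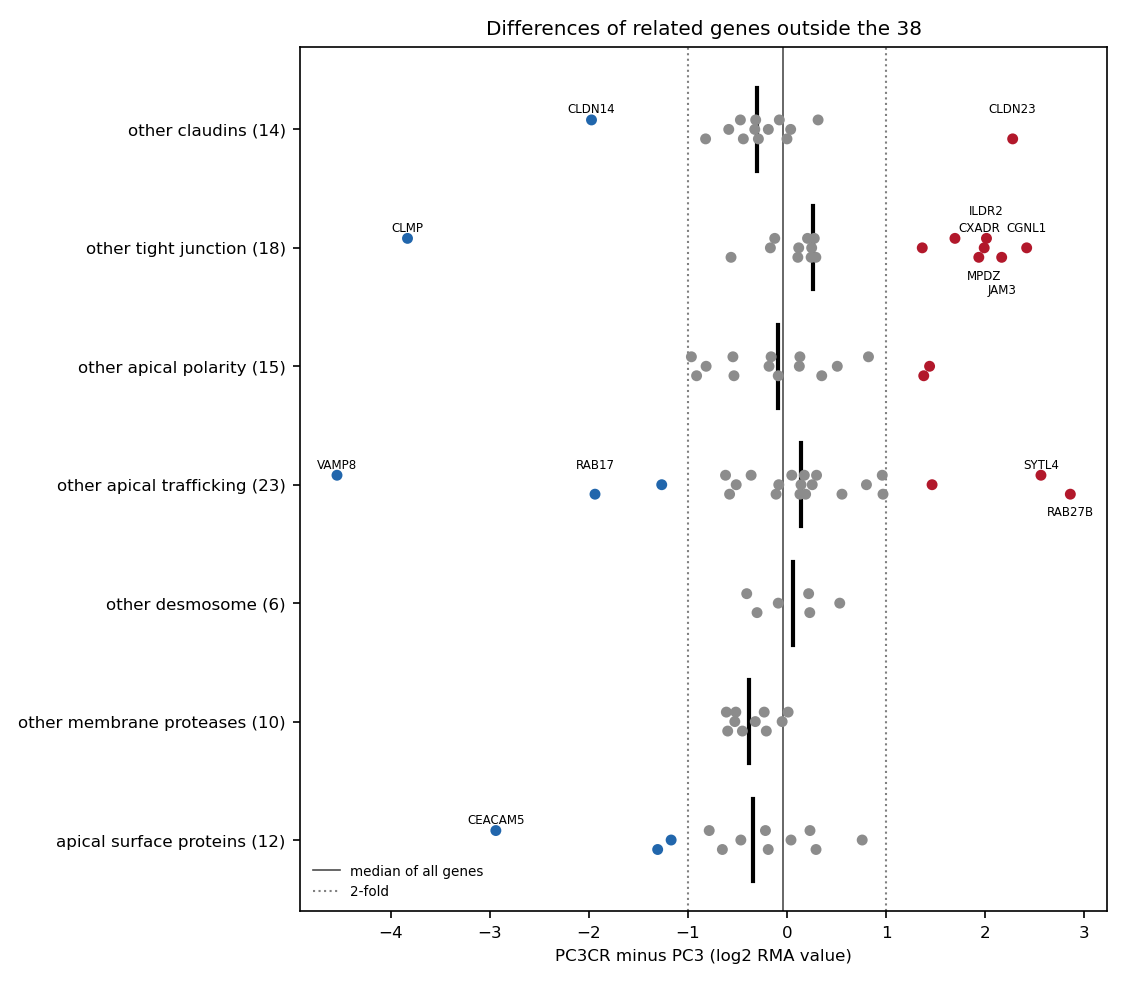
PC3CR minus PC3 on the log2 scale of RMA values (horizontal axis) of related genes outside the 38, by list, 1 point per gene, with the number of genes in brackets and names for differences of at least 1.9 in size. Colours, black medians, dotted 2-fold lines and the thin line at the median of all genes are as for the classes of the 38 genes. VAMP8 at -4.54 and CLMP at -3.83 lie furthest to the left.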

How the data were processed

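Total RNA of PC3CR and PC3 cells was hybridised to 1 array each. The deposited values are log2 signals of probe sets that the authors made with RMA, and their processing notes name Affymetrix Expression Console 1.4 and Transcriptome Analysis Console 3.1. RMA brings the distributions of the arrays close together, so each value is relative to the other probe sets. The deposited distributions were close but not identical: values ran from 1.58 to 14.11 in PC3CR cells and from 1.62 to 14.14 in PC3 cells. Over genes, each by its brightest probe set, the medians were 6.05 in PC3CR cells and 5.93 in PC3 cells. Identifiers follow the U133 Plus 2.0 design, although a Human Gene ST array is given in the methods. Of 54613 probe sets, 41091 with 1 gene symbol in the platform annotation were used, with symbols updated through Entrez IDs for 41037. Each gene was represented by its brightest probe set (mean of the arrays). PC3CR minus PC3 was computed and counted at 2-fold, and no p-value was computed.

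The genes, their classes and the related lists were chosen with earlier results of these data known. Named genes were all those past 2-fold among the 38, with members of their class, and at most the 3 furthest from 0 in each related list whose brighter array reached the median, with paralogs of genes past 2-fold; CDH2, CXADR, PATJ, RAB17, MYO5A, AP1M1, EZR, CEACAM1, CEACAM6 and the cell markers were named outside this rule, after their values were seen. Alternatives were thresholds of 1.5-fold and 3-fold, floors at the median and lower quartile, the mean of probe sets, probe sets without the suffixes x and s, median centring, loess centring (span 0.4), quantile normalization, all probe sets, and 5 neighbours on each side. A value was taken as moved past 0.1 on the log2 scale and a count past 1.5 times. The procedure was tested on simulated data. Scripts ran in Python 3.11.15 with pandas 2.3.3, numpy 2.4.6, matplotlib 3.10.9 and statsmodels 0.14.6.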

Additional observations from a re-analysis of the deposited data

How the results depend on the processing

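The 11 genes lower by 2-fold remained so under median centring, loess centring and quantile normalization. Median centring moves every difference by the same small amount, for CLDN1 from -0.382 to -0.379, so it is no check of these genes. Loess centring and quantile normalization each added MARVELD3 and CRB3, and leaving out x and s probe sets kept all 18 genes and added PERP. The floors also kept all 18 genes. They leave genes out without changing a difference, and a gene can pass them through 1 array alone, so this is no check of the differences. With the mean of probe sets 10 of the 11 remained, CLDN1 was added, and 5 of the 7 higher genes remained, and quantile normalization left 6 of the 7, without TJP3. At 1.5-fold 18 genes were lower and at 3-fold 1 was higher, and over all probe sets 13 were higher and 14 lower. The median difference was -0.51 over the 36 genes above the lower quartile, -0.53 with the mean of probe sets and -0.16 over all probe sets. With the mean of probe sets the class medians were -1.00 for claudins, 0.30 for other tight junction genes, -0.53 for polarity genes, 0.11 for desmosome genes, -1.26 for proteases and inhibitors and -0.95 for EPCAM and CDS1. The desmosome median was 0.43 with the floor at the median and 0.066 with the floor at the lower quartile, and the polarity median was -0.41 without x and s probe sets and -0.76 after quantile normalization. No gene past 2-fold and no class median changed sign. Of 185 values of single genes under the alternatives, 50 moved by over 0.1, as did 15 of the 37 neighbour medians with 5 neighbours on each side, and the cause was not tested. No paired analysis was possible because each cell line has 1 array, and leaving out an array would leave no comparison. Values near the floor of the array, such as those of RAB25 and CLDN4 in PC3CR cells, limit the size of a difference.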

Other observations

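Proteins of the apical surface were not part of the junction classes and are given as values. Of 12 measured, 3 were at least 2-fold lower in PC3CR cells, beside 6.72% of all genes, none was at least 2-fold higher, and the median difference was -0.34. With the floor at the median, which CEACAM1 and CEACAM6 did not reach, 1 was lower, as at 3-fold. The genes past 2-fold were all of the CEACAM family of adhesion proteins. CEACAM5 was at 3.60 in PC3CR cells and 6.54 in PC3 cells, a difference of -2.94, although its second probe set differed by -0.09. CEACAM1 was at 4.33 in PC3CR cells and 5.63 in PC3 cells, with 1 of its 5 probe sets past 2-fold and 1 at 0.13. CEACAM6 was at 4.22 in PC3CR cells and 5.39 in PC3 cells, with both of its probe sets past 2-fold. With the mean of probe sets, 2 of the 12 genes were at least 2-fold lower. MUC1, a transmembrane mucin, differed by 0.76, NHERF1, the scaffold of apical microvilli, by -0.78, and its partner EZR (ezrin) by -0.19.

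For 3 pairs of paralogs the differences were as follows. MYO5A, the paralog of MYO5B, differed by 1.46, against 0.34 for MYO5B, and RAB11A, a paralog of RAB25, by 0.55, against -4.20 for RAB25. AP1M1, the ubiquitous paralog of AP1M2, differed by 0.25, against -0.68 for AP1M2. These genes were picked after their values had been seen, and the contrasts were not tested.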
